A study of Homo sapiens with 20 samples.

Results

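The response of A549 cells to TGFβ was measured by RNA-seq in 4 libraries, 2 labelled siCont and 2 labelled TGFb, of 20 libraries in the series. A549 is a lung adenocarcinoma line. Its labels also describe it as immortalized with the SV40 large T antigen. The siCont cells had received a control siRNA and no TGFβ. The TGFb cells had received TGFβ at 5 ng/ml for 72 h. The labels of the TGFb libraries name no siRNA. Libraries of each group are lettered A and B. Values for 2 libraries are given in that order. The labels do not say whether the libraries of a group are separate cultures. The p-values therefore reflect library-to-library spread alone, and that spread may be technical. Every gene in the count files was examined (23368), and 14124 had enough reads to be tested. The other groups used here are A549 libraries labelled siKLF10 with and without the same TGFβ treatment (2 each), where KLF10 is a TGFβ-induced transcription factor, and libraries of the pancreatic carcinoma line Panc1 labelled siCont and TGFb (3 each).

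TGFβ is a secreted cytokine that is stored in the matrix bound to latency proteins. Once released it joins the type I and type II receptor kinases, which phosphorylate SMAD2 and SMAD3. These enter the nucleus with SMAD4 and act on target genes, among them genes of inhibitors that limit the signal. In epithelial cells TGFβ is known for slowing division and for the epithelial-to-mesenchymal transition (EMT), in which cells lose E-cadherin junctions and gain fibroblast-like matrix, adhesion and actin genes. A549 is among the lines most used to study this transition in lung cells.

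Gene reads in the 4 libraries ranged from 6846761 in TGFβ B to 13459688 in siCont A, so that 3 reads correspond to 0.223 to 0.438 CPM, the read count scaled to library size. CPM here include the TMM factor, which evens out differences in composition between libraries. Of uniquely mapped reads, 59.2 to 59.9% in each library were assigned to no annotated gene in the counting. Whether they lay between genes, in introns or on the opposite strand was not tested. Alignments of multiply mapping reads per uniquely mapped read were 1.05 in both siCont libraries and 0.872 and 0.891 in TGFβ A and B, so this measure of library composition moved with the treatment, and its part in the results was not tested. The first principal component, which held 77.9% of the variance over the 8 A549 libraries, set every TGFβ library apart from every library without TGFβ. Of 10 genes typical of lung cells, 3 were tested (SFTPD, ABCA3 and NAPSA), and the surfactant genes SFTPA1, SFTPA2, SFTPB and SFTPC and the lung lineage factor NKX2-1 were too low to test in this line. Of 9 blood cell markers 3 were tested: CD68 rose 2.12-fold (from 23.8 and 24.3 to 49.6 and 52.7 CPM), CD79A rose 6.17-fold (from 0.2903 and 0.613 to 2.82 and 2.67 CPM) and CD14 fell 3.68-fold (from 5.15 and 5.08 to 1.31 and 1.48 CPM), while PTPRC, which defines these cells, was too low to test. Of 8 endothelial markers TEK alone was tested, with no read in siCont and 2.41 and 3.42 CPM in TGFβ A and B, at least 23.7-fold higher, while PECAM1 and CDH5 were too low. Summed reads of the blood cell markers were 0.00304 and 0.00317% of gene reads in the siCont libraries and 0.00524 and 0.00564% in the TGFβ libraries, and those of the endothelial markers 5.2e-05 and 3.64e-05% in the siCont libraries and 3.03e-04 and 4.09e-04% in the TGFβ libraries. All 8 pancreatic markers were too low to test. The part of such cells in the results was not tested. In bulk RNA, fewer cells of a type and less RNA per cell cannot be told apart.

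TGFβ altered about as many genes upwards as downwards, with larger folds among the rises. Genes were called at an adjusted p under 0.05. Of 14124 genes, 3416 were higher with TGFβ (24.2%) and 3317 were lower (23.5%), 47.7% in all. Counts called in each gene list below are to be read against these shares. At 2-fold or more, 1286 genes were higher (9.11%) and 966 lower (6.84%). The CPM of the 2 groups did not overlap for 10773 of the 14124 genes (76.3%), and non-overlap of a single gene is to be read against that share. At 8-fold or more there were 289 rises and 152 falls, and at 32-fold or more 117 rises and 42 falls. No read in either siCont library was found for 45 of the genes that rose, and none in either TGFβ library for 20 of those that fell. Another 70 rises and 63 falls had 1 to 3 reads in the lower group. The fitted folds of these genes, which the counts by fold and the plots include, depend on the prior count of the model. The median log2 fold change over all tested genes was −0.01.

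**Figure D1:**
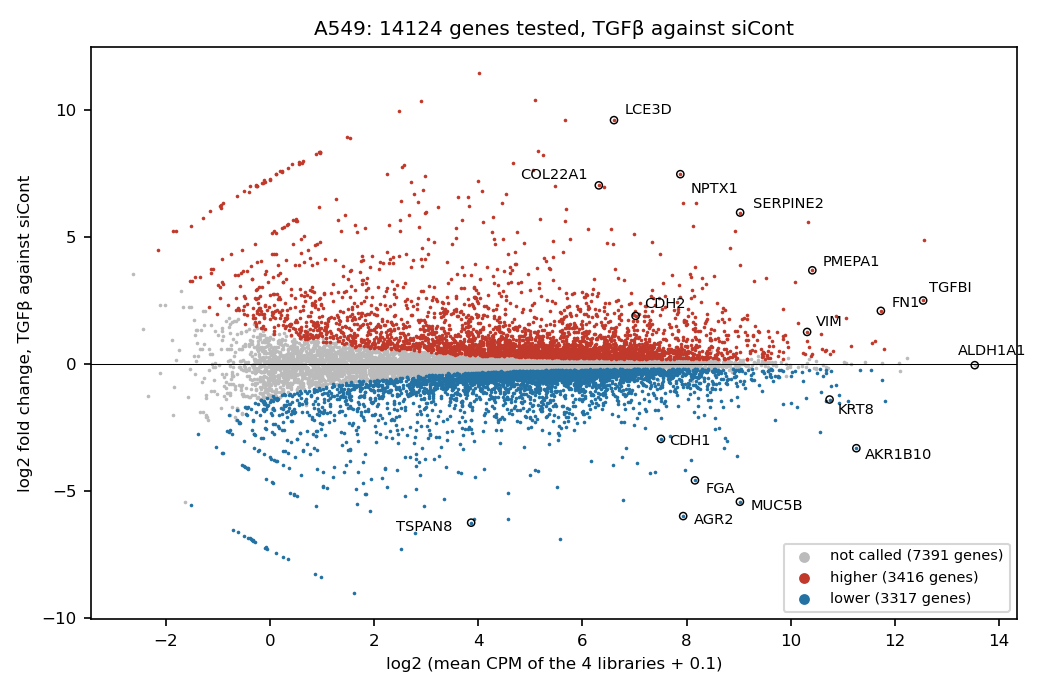
Each point is 1 of 14124 genes. The x axis is the log2 mean CPM of the 4 libraries and the y axis the log2 fold change between TGFβ and siCont, with 3416 genes called higher in red, 3317 called lower in blue and the rest in grey. Named genes are circled: PMEPA1, SERPINE2 and NPTX1 lie high above 0, CDH1, AGR2 and MUC5B far below it, and ALDH1A1 on the line.

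Among genes of the TGFβ pathway itself more rose than fell. Of its ligands, receptors, SMADs, latency proteins and inhibitors, 19 of 32 tested genes rose, 6 fell and 7 did not pass the test (median log2 0.51, against −0.01 over all genes). SMAD7, the inhibitory SMAD that TGFβ induces, was at 25.7 and 27.6 CPM in the siCont libraries and 79.2 and 74.4 CPM in the TGFβ libraries. Both TGFβ libraries lay above both siCont libraries (log2 fold change 1.53 ± 0.094, adjusted p = 8.21e-12). The groups did not overlap for 76.3% of all tested genes. PMEPA1, another induced inhibitor, was 12.9-fold higher (from 202 and 191 to 2582 and 2476 CPM), and SKIL, a SMAD corepressor, 2.66-fold higher (from 80.6 and 88.8 to 226 and 225 CPM). The ubiquitin ligases SMURF1 and SMURF2, which act on receptors and SMADs, rose 1.95-fold and 2.45-fold.

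The receptors moved in different directions. TGFBR1, the type I receptor kinase, was at 63.6 and 65.2 CPM in the siCont libraries and 503 and 466 CPM in the TGFβ libraries and rose 7.52-fold (log2 fold change 2.91 ± 0.080, adjusted p = 7.55e-18). TGFBR2, the type II kinase, fell 1.88-fold (from 334 and 337 to 187 and 169 CPM), and TGFBR3, the coreceptor betaglycan, fell 6.0996-fold (from 36.9 and 32.5 to 5.84 and 5.49 CPM). The groups did not overlap in any of these 3 genes, as in 76.3% of all tested genes. All 4 latent TGFβ binding proteins rose: LTBP2 6.87-fold, LTBP3 4.65-fold, LTBP4 4.11-fold and LTBP1 1.77-fold. THBS1, thrombospondin 1, an activator of latent TGFβ, rose 14.7-fold (from 67.1 and 66.1 to 981 and 979 CPM). Of the ligands, TGFB1 rose 1.61-fold. The signalling SMADs SMAD2 (log2 −0.10 ± 0.079, adjusted p = 0.304) and SMAD3 (log2 −0.06 ± 0.071, adjusted p = 0.5399) did not pass the test. C18orf1, a homologue of PMEPA1, had the largest log2 fold change of the list, 4.73 ± 0.18 (from 1.31 and 1.58 to 39.04 and 37.4 CPM).

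The related BMP and activin branch was rearranged. Of its ligands, receptors, antagonists and targets, 12 of 23 tested genes rose, 9 fell and 2 did not pass the test (median log2 0.50). INHBA, the subunit of activin A, rose 69.5-fold (from 1.52 and 1.31 to 87.2 and 114 CPM) while INHBB, the subunit of activin B, fell 16.01-fold (from 182 and 180.1 to 11.8 and 10.7 CPM). BMP2 rose 26.9-fold (from 2.32 and 1.84 to 55.4 and 58.2 CPM) and BMP4 fell 3.52-fold (from 43.8 and 42.6 to 12.4 and 12.2 CPM). GDF15, a stress-induced family member, fell 4.75-fold. The ID genes encode helix-loop-helix inhibitors that BMPs induce and that TGFβ can lower. ID1 was at 339 and 333 CPM in the siCont libraries and 180.1 and 189.6 CPM in the TGFβ libraries, a fall of 1.82-fold. ID2 fell 2.53-fold (from 92.7 and 96.7 to 38.03 and 36.8 CPM) and ID4 3.65-fold (from 28.2 and 28.3 to 7.04 and 8.61 CPM). ID3 went the other way, from 2 siCont libraries at 237 and 229 CPM to 326 and 357 CPM with TGFβ (log2 fold change 0.55 ± 0.081, adjusted p = 7.47e-06).

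Snail, Slug and ZEB factors rose, and ELF3 and FOXA2, factors of epithelial identity, fell. The list of EMT regulators mixes inducers of EMT with epithelial factors that oppose it and with splicing regulators. Its counts therefore do not describe 1 kind of factor. Of this list, 9 of 21 tested genes rose, 7 fell and 5 did not pass the test (median log2 0.10). The share called was 76.2%, against 47.7% of all genes, and 7 further members were too low to test. SNAI1, the Snail repressor of E-cadherin, was at 6.096 and 4.03 CPM in the siCont libraries and 18.9 and 19.3 CPM in the TGFβ libraries, 3.71-fold higher (log2 fold change 1.89 ± 0.17, adjusted p = 4.57e-09). SNAI2, Slug, was at 0.798 and 0.613 CPM in the siCont libraries and 5.84 and 4.75 CPM in the TGFβ libraries, 7.43-fold higher (log2 fold change 2.89 ± 0.31, adjusted p = 6.52e-08). ZEB1 was at 21.6 and 23.5 CPM in the siCont libraries and 45.8 and 47.5 CPM in the TGFβ libraries, 2.07-fold higher (log2 fold change 1.05 ± 0.12, adjusted p = 2.33e-07). In all 3 genes each TGFβ library exceeded each siCont library, where 76.3% of all tested genes did not overlap between the groups. ZEB2 rose 3.099-fold (from 2.54 and 2.19 to 7.14 and 7.72 CPM), and SOX4 3.93-fold (from 54.5 and 55.3 to 219 and 212 CPM). TWIST1, a Twist factor, fell 1.73-fold, a call that was lost without siCont A (log2 −0.44, adjusted p = 0.269) and without TGFβ A (log2 −0.58, adjusted p = 0.202). TWIST2 fell 1.76-fold, a call lost without siCont A (log2 −0.44, adjusted p = 0.225) and without TGFβ B (log2 −0.66, adjusted p = 0.0830). ELF3 fell 3.56-fold (from 278 and 269 to 80.1 and 73.2 CPM) and FOXA2 2.47-fold (from 54.8 and 57.7 to 22.6 and 22.9 CPM), whereas FOXA1 did not pass the test (log2 0.10 ± 0.10, adjusted p = 0.4295). ESRP1, a splicing regulator of epithelial isoforms, fell 1.55-fold, a call lost without siCont A (log2 −0.46, adjusted p = 0.116) and without TGFβ A (log2 −0.53, adjusted p = 0.110).

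KLF10, the Krüppel-like factor that the series set out to lower, was at 110.3 and 107 CPM in the siCont libraries and 179 and 179 CPM in the TGFβ libraries (log2 fold change 0.72 ± 0.079, adjusted p = 1.08e-07). Of the Krüppel-like genes, 5 of 13 tested genes rose, 4 fell and 4 did not pass the test (69.2% called, against 47.7% of all genes). Those that rose furthest were KLF7 (3.47-fold, from 15.02 and 15.8 to 53.1 and 53.8 CPM) and KLF12 (3.03-fold, from 7.62 and 8.23 to 25.7 and 21.98 CPM). KLF11, the closest relative of KLF10, rose 1.99-fold, and KLF9, KLF5 and KLF4 fell 2.19-fold, 1.75-fold and 1.65-fold.

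E-cadherin fell and N-cadherin rose. CDH1, E-cadherin, was at 320.2 and 324 CPM in the siCont libraries and 44.6 and 37.9 CPM in the TGFβ libraries, 7.77-fold lower (log2 fold change −2.96 ± 0.091, adjusted p = 6.13e-17). CDH2, N-cadherin, was at 57.98 and 52.2 CPM in the siCont libraries and 211 and 198 CPM in the TGFβ libraries, 3.71-fold higher (log2 fold change 1.89 ± 0.086, adjusted p = 4.23e-14). Neither gene overlapped between the groups, as was so for 76.3% of all tested genes. Further cadherins rose from low levels: CDH11 by 37.03-fold (from 1.23 and 1.58 to 50.1 and 53.9 CPM), CDH4 by 11.9-fold (from 4.06 and 3.41 to 44.7 and 44.99 CPM) and CDH6 by 17.4-fold (from 0.871 and 0.7003 to 13.7 and 14.4 CPM). Over cadherins, adherens and tight junction genes, 9 of 32 tested genes rose, 16 fell and 7 did not pass the test (median log2 −0.33). Falls included the tight junction scaffold TJP3 (6.29-fold, from 19.4 and 19.3 to 2.72 and 3.56 CPM), the polarity protein LLGL2 (3.696-fold) and the adhesion molecule EPCAM (2.32-fold, from 49.6 and 45.4 to 20.6 and 20.3 CPM). The catenins that link cadherins to actin did not fall, since CTNNB1 rose 1.81-fold and CTNNA1 1.68-fold, and JUP did not pass the test (log2 0.10 ± 0.075, adjusted p = 0.291). CLDN4, a claudin of tight epithelia, rose 12.9-fold (from 3.48 and 3.76 to 48.1 and 45.1 CPM).

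Keratins were split. Of desmosome and keratin genes, 7 of 23 tested genes rose, 9 fell and 7 did not pass the test (median log2 −0.15). The share called was 69.6%, against 47.7% of all genes. KRT8, a keratin of simple epithelium, was at 2530 and 2448 CPM in the siCont libraries and 973 and 906 CPM in the TGFβ libraries and fell 2.65-fold. Its partner KRT18 was at 1839 and 1757 CPM in the siCont libraries and 761 and 660.03 CPM in the TGFβ libraries and fell 2.53-fold. KRT7, a keratin of ducts and glands, rose 1.87-fold (from 2197 and 2188 to 3949 and 4232 CPM), and the groups did not overlap, as in 76.3% of all tested genes. KRT4, a keratin of mucosal squamous epithelium, fell 69.5-fold (from 48.5 and 44.4 to 0.905 and 0.297 CPM), and KRT6A, a keratin of activated epidermis, rose 17.5-fold (from 0.435 and 0.613 to 9.56 and 8.76 CPM), although it has near-identical copies. Desmosomal genes were mixed, with DSC2 higher by 2.83-fold, DSG2 by 1.47-fold, PKP2 lower by 2.11-fold and DSP not passing the test (log2 −0.11 ± 0.088, adjusted p = 0.329).

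Epithelial genes outside junctions and keratins had the lowest median of the 37 lists shown. The list holds secretory and glandular genes and also general epithelial genes such as MAL2, AP1M2 and CD24. Of 20 tested genes 15 fell, none rose, and the median log2 was −1.74. This list, like the others, was written with earlier results of these data known. Its counts and rank may therefore partly follow the choice of members. AGR2, a disulfide isomerase needed for mucin folding, was at 471 and 492 CPM in the siCont libraries and 8.45 and 6.24 CPM in the TGFβ libraries, 63.9-fold lower (log2 fold change −6.0 ± 0.13, adjusted p = 1.19e-19). MUC5B, a gel-forming airway mucin, was at 1015 and 1016 CPM in the siCont libraries and 21.1 and 26.4 CPM in the TGFβ libraries, 43.2-fold lower (log2 fold change −5.43 ± 0.12, adjusted p = 1.16e-18). Both siCont libraries were high and both TGFβ libraries low, and the rule that picked these 2 genes by size required that the groups did not overlap. SLPI, an antiprotease of airway fluid, fell 18.03-fold (from 62.99 and 65.04 to 3.52 and 3.56 CPM), the receptor ERBB3 9.73-fold (from 54.1 and 51.7 to 6.04 and 4.603 CPM) and lipocalin LCN2 8.88-fold (from 23.1 and 21.9 to 2.31 and 2.82 CPM). Of the alveolar and airway markers, a separate list, 3 of 12 tested genes rose, 6 fell and 3 did not pass the test (median log2 −0.35). SPDEF, a transcription factor of goblet cells, fell 21.9-fold (from 30.8 and 27.3 to 1.41 and 1.19 CPM). SFTPD, surfactant protein D, fell 5.45-fold (from 5.95 and 7.35 to 0.905 and 1.63 CPM), and the glycerol channel AQP3 19.1-fold (from 339.6 and 297 to 17.4 and 15.6 CPM). The rises were of the adhesion molecule ICAM1 (4.88-fold, from 5.23 and 4.81 to 25.96 and 23.02 CPM), the lipid transporter ABCA3 (1.47-fold, from 50.5 and 46.2 to 73.04 and 68.6 CPM) and the lipid enzyme LPCAT1 (1.398-fold). The protease NAPSA did not pass the test (log2 −0.25 ± 0.50, adjusted p = 0.712).

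Collagen genes rose broadly. Of the collagen chains, 16 of 23 tested genes rose, 3 fell and 4 did not pass the test (median log2 1.76). Their summed reads were 0.169 and 0.176% of gene reads in the siCont libraries and 0.634 and 0.644% in the TGFβ libraries. COL1A1, a chain of fibrillar type I collagen, was at 6.17 and 6.48 CPM in the siCont libraries and 163 and 179 CPM in the TGFβ libraries, 26.98-fold higher (log2 fold change 4.75 ± 0.11, adjusted p = 2.96e-19). COL22A1, a collagen of tissue junctions, was at 1.09 and 1.31 CPM in the siCont libraries and 155 and 161 CPM in the TGFβ libraries, 131-fold higher. The basement membrane pair COL4A1 and COL4A2 rose 10.5-fold (from 128 and 129.6 to 1351 and 1347 CPM) and 9.26-fold (from 210.3 and 213 to 1961 and 1957 CPM). COL5A1 rose 13.9-fold (from 37.4 and 39.2 to 522 and 545 CPM) and COL7A1, the anchoring fibril collagen, 4.17-fold (from 151 and 169 to 634 and 696 CPM). The 3 falls were of COL12A1 (2.36-fold), COL4A6 (2.35-fold) and COL4A5 (1.91-fold). Markers of fibroblasts moved with the treatment too. Of 9 listed, 6 were tested and 5 rose, COL1A1 among them. FAP, a surface protease of activated fibroblasts, was higher by a ratio of pooled reads of 41.3 (exact 95% counting interval 13.7 to 204) (from 0.145 and 0.0875 to 5.33 and 4.31 CPM), and LUM, the proteoglycan lumican, rose 5.59-fold (from 0.435 and 0.613 to 2.92 and 2.97 CPM). The summed reads of the 9 were 0.0008395 and 0.000828% of gene reads in the siCont libraries and 0.0171 and 0.0186% in the TGFβ libraries. COL1A2, PDGFRB and the proteoglycan DCN were too low to test. The part of other cells in these values was not tested.

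Of the enzymes that process collagen, 12 of 20 tested genes rose, 1 fell and 7 did not pass the test. ADAMTS2, which cuts procollagen, rose 75.2-fold (from 0.2903 and 0.438 to 27.3 and 28.2 CPM). The crosslinking oxidases LOX and LOXL2 rose 8.64-fold (from 4.35 and 4.202 to 38.1 and 35.9 CPM) and 5.47-fold (from 97.5 and 94.4 to 512 and 537 CPM). Among prolyl hydroxylase subunits P4HA3 rose 6.44-fold and P4HA2 3.73-fold, while P4HA1 did not pass the test (log2 −0.09 ± 0.095, adjusted p = 0.488). The collagen chaperone SERPINH1 did not pass it either (log2 0.12 ± 0.098, adjusted p = 0.333).

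Other matrix genes made up 0.788 and 0.807% of gene reads in the siCont libraries and 2.36 and 2.23% in the TGFβ libraries. Of these glycoproteins and proteoglycans, 24 of 40 tested genes rose, 8 fell and 8 did not pass the test (median log2 1.05). FN1, fibronectin, was at 1257 and 1327 CPM in the siCont libraries and 5760 and 5226 CPM in the TGFβ libraries, 4.25-fold higher (log2 fold change 2.09 ± 0.087, adjusted p = 1.08e-14). TGFBI, a matrix protein named for its induction by TGFβ, was at 1842 and 1742 CPM in the siCont libraries and 10549 and 9689 CPM in the TGFβ libraries, 5.65-fold higher. SPOCK1, a proteoglycan, rose 80.99-fold (from 6.604 and 5.16 to 498 and 464 CPM), CTGF, a matricellular protein, 23.8-fold (from 37.3 and 35.6 to 860.02 and 879.9 CPM) and SPARC, osteonectin, 18.5-fold (from 3.34 and 5.69 to 81.2 and 83.5 CPM). VCAN, versican, rose 3.02-fold (from 532 and 588 to 1775 and 1602 CPM). The 3 largest falls of the list were the fibrinogen chains, described below with the secreted plasma proteins. CD44 (log2 0.16 ± 0.084, adjusted p = 0.127) and agrin, AGRN (log2 0.08 ± 0.075, adjusted p = 0.384), did not pass the test.

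Adhesion receptors and laminins also rose more often than they fell. Of integrin and laminin genes, 16 of 24 tested genes rose, 4 fell and 4 did not pass the test (median log2 0.67). LAMB3, the β3 chain of laminin, was at 123 and 116 CPM in the siCont libraries and 393 and 378 CPM in the TGFβ libraries, 3.23-fold higher (log2 fold change 1.69 ± 0.076, adjusted p = 3.85e-14), while the α3 chain gene LAMA3 fell 1.33-fold. The collagen-binding integrins ITGA11, ITGA2 and ITGA1 rose 49.9-fold (from 2.32 and 1.58 to 102 and 96.2 CPM), 10.4-fold (from 55.3 and 55.8 to 606 and 545 CPM) and 3.72-fold. The fibronectin receptor subunit ITGA5 rose 6.35-fold (from 78.1 and 74.8 to 496 and 476 CPM). ITGB6, whose integrin releases latent TGFβ, rose 6.89-fold (from 3.99 and 6.83 to 37.6 and 35.5 CPM). ITGB4, the hemidesmosome subunit, rose 2.82-fold (from 120.4 and 112 to 339 and 318 CPM). ITGB5 fell 1.51-fold and ITGA10 4.56-fold.

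Proteases and their inhibitors rose side by side. Of the list, 26 of 37 tested genes rose, 4 fell and 7 did not pass the test (median log2 1.26). SERPINE2, an inhibitor of serine proteases, was at 16.8 and 16.02 CPM in the siCont libraries and 1054 and 998 CPM in the TGFβ libraries, 62.4-fold higher (log2 fold change 5.96 ± 0.098, adjusted p = 4.14e-21). The 2 libraries of each group lay close together and the groups far apart. MMP2, gelatinase A, was at 7.33 and 6.65 CPM in the siCont libraries and 580.1 and 565 CPM in the TGFβ libraries, 81.5-fold higher. MMP1, interstitial collagenase, was at 0.2903 and 0.3502 CPM in the siCont libraries and 68.9 and 62.96 CPM in the TGFβ libraries, and MMP10, stromelysin 2, at 0.145 and 0.263 CPM in the siCont libraries and 52.9 and 47.2 CPM in the TGFβ libraries. Both were near 0 in every siCont library (log2 fold change 7.65 ± 0.21, adjusted p = 1.07e-17 for MMP1 and log2 fold change 7.9 ± 0.24, adjusted p = 4.46e-17 for MMP10). MMP9 rose 31.6-fold (from 0.435 and 1.05 to 23.3 and 22.4 CPM) and the shedding protease ADAM19 43.6-fold (from 13.6 and 11.2 to 559 and 528 CPM). The inhibitors TIMP3 and TIMP2 rose 62.8-fold (from 0.218 and 0.263 to 17.1 and 13.8 CPM) and 5.299-fold (from 125 and 119.7 to 651 and 644 CPM). MMP7, matrilysin, fell 4.11-fold (from 49.4 and 46.4 to 13.8 and 8.91 CPM), and MMP14, the membrane-bound activator of MMP2, did not pass the test (log2 0.40 ± 0.24, adjusted p = 0.172).

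**Figure D2:**
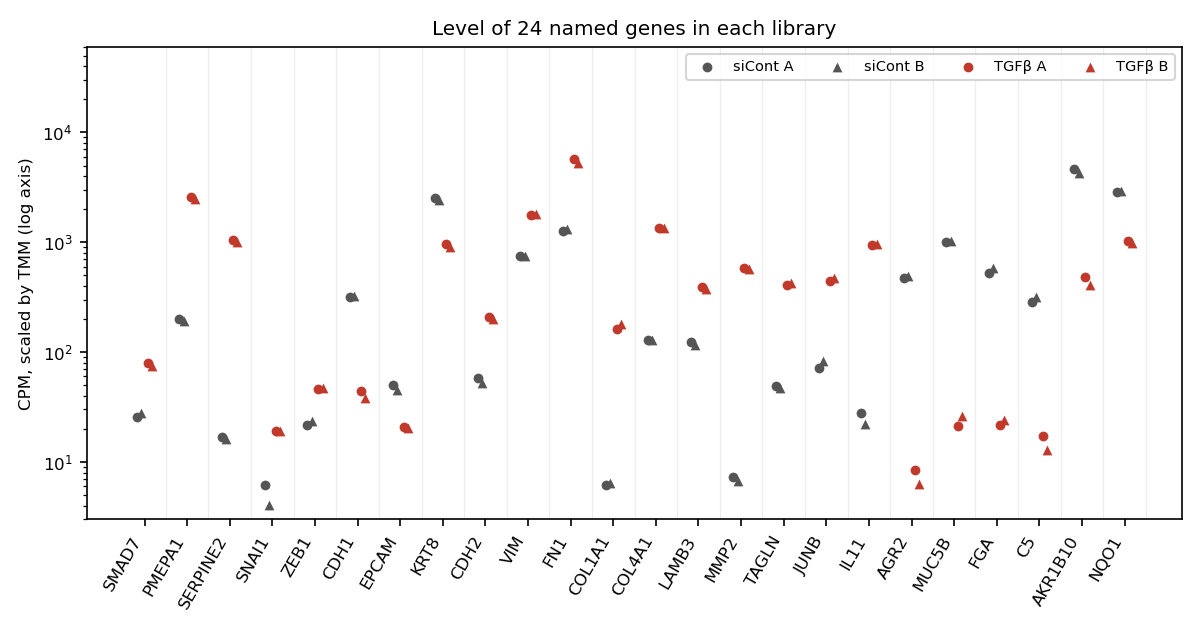
CPM of 24 named genes in siCont A and B (grey) and TGFβ A and B (red), on a log axis. Circles are A and triangles B. The 2 libraries of a group lie close together in every gene shown, with SERPINE2 at 1054 and 998 CPM with TGFβ and CDH1 at 44.6 and 37.9 CPM. The groups do not overlap in these genes, as in 76.3% of all tested genes.

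Actin and stress fibre genes rose in number more than in size. Of the list, 31 of 38 tested genes rose, 3 fell and 4 did not pass the test (median log2 0.69), and their summed reads made up 2.09 and 2.02% of gene reads in the siCont libraries and 3.19 and 3.26% in the TGFβ libraries. TAGLN, transgelin, was at 49.1 and 46.7 CPM in the siCont libraries and 406 and 426 CPM in the TGFβ libraries, 8.68-fold higher (log2 fold change 3.12 ± 0.088, adjusted p = 1.27e-17). TNS1, a focal adhesion protein, rose 11.5-fold (from 42.9 and 42.3 to 486 and 493 CPM), FERMT1, which activates integrins, 10.7-fold (from 47.7 and 45.3 to 516 and 478 CPM), and TPM1, tropomyosin 1, 3.72-fold (from 769 and 815 to 2934 and 2959 CPM). Abundant structural genes rose less, MYH9 by 2.25-fold, FLNA by 1.78-fold and ACTB by 1.49-fold. ACTA2, smooth muscle actin, a usual marker of myofibroblasts, was at 13.2 and 12.6 CPM in the siCont libraries and 13.4 and 13.7 CPM in the TGFβ libraries and did not pass the test (log2 0.06 ± 0.14, adjusted p = 0.741). MYLK, myosin light chain kinase, fell 4.24-fold (from 84.5 and 80.7 to 19.5 and 19.5 CPM). VIM, vimentin, the intermediate filament of mesenchymal cells, was at 747 and 752 CPM in the siCont libraries and 1765 and 1821 CPM in the TGFβ libraries, 2.39-fold higher (log2 fold change 1.26 ± 0.082, adjusted p = 2.06e-11).

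Plasma proteins of the kind made by liver, whose genes A549 also expresses, fell almost as a block. Of complement and liver-like secreted genes, 2 of 21 tested genes rose, 18 fell and 1 did not pass the test (median log2 −1.67), with 12 further genes too low to test. The 3 fibrinogen chains were high without TGFβ and low with it. FGA was at 520.1 and 577 CPM in the siCont libraries and 21.7 and 24.1 CPM in the TGFβ libraries, 24.1-fold lower (log2 fold change −4.59 ± 0.11, adjusted p = 4.6e-18). FGB was at 478 and 531 CPM in the siCont libraries and 37.1 and 34.7 CPM in the TGFβ libraries and FGG at 446 and 503 CPM in the siCont libraries and 26.7 and 25.99 CPM in the TGFβ libraries, falls of 13.995-fold and 18.003-fold. APOH, a lipoprotein that binds phospholipids, fell 34.4-fold (from 39.8 and 52.1 to 1.31 and 1.34 CPM), transferrin, TF, 30.9-fold (from 11.7 and 15.1 to 0.302 and 0.594 CPM) and vitronectin, VTN, 19.8-fold (from 24.7 and 23.2 to 1.01 and 1.48 CPM). Of complement, C5 was at 284 and 315 CPM in the siCont libraries and 17.1 and 12.9 CPM in the TGFβ libraries, 19.6-fold lower and C3 fell 3.18-fold (from 453 and 452 to 150.01 and 134 CPM). CD59, which guards cells against the membrane attack complex, rose 4.47-fold (from 343 and 333 to 1550 and 1470 CPM).

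Promoter sequence was examined because the fibrinogen chains fell together and several proteases and cytokines rose from near 0. RefSeq promoters (GRCh38.p14) were matched to 10801 of the 14124 tested genes, and the 250 bases before each start were searched on both strands. The hexamer GTTAAT, searched for as a motif of liver promoters, was present for 5.41% of these genes, for 28 of 101 genes that fell 8-fold or more (27.7%) and for 8 of 196 that rose 8-fold or more (4.08%). The AP-1 site TGANTCA was present for 6.43% of genes, for 28 of the 196 that rose (14.3%) and for 11 of the 101 that fell (10.9%). The antioxidant response core TGACNNNGC was present for 15.9% of genes, 16.8% of those that rose and 10.9% of those that fell, and the E-box CAGGTG for 21.1, 25.0 and 18.8%. The SMAD palindrome GTCTAGAC was found for 0.241% of genes and for 1 of the 196. Over all 27305 RefSeq genes in the table the shares were 7.50% for GTTAAT and 8.06% for TGANTCA. A match describes letters in this window and no binding was measured. The windows below run from 150 to 31 bases before the start, 5′ to 3′ on the gene's strand, and show where the letters lie in 3 plasma protein genes that fell and 2 genes that rose, picked because they hold them. FGG, TF and VTN, which also fell, have no GTTAAT in the 250 bases. Capitals mark GTTAAT or its reverse complement in FGA (chr4:154590773-154590892, minus strand), FGB (chr4:154562830-154562949, plus strand) and APOH (chr17:66229446-66229565, minus strand), and TGANTCA in MMP10 (chr11:102780659-102780778, minus strand) and IL11 (chr19:55370494-55370613, minus strand).
FGA: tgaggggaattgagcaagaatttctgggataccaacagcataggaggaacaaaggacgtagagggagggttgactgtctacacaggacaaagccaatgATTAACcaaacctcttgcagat
FGB: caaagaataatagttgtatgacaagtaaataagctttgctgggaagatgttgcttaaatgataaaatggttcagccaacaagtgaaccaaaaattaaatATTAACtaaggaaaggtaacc
APOH: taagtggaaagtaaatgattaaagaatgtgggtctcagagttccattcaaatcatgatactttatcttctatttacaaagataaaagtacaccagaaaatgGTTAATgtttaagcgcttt
MMP10: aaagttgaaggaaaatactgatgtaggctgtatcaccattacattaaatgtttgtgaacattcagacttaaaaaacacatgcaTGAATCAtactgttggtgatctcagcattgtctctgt
IL11: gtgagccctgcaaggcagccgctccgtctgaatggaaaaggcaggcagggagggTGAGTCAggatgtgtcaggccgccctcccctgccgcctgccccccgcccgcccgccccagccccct

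In these windows the hexamer begins 52, 51 and 49 bases before the starts of FGA, FGB and APOH, and the AP-1 site 67 and 96 bases before those of MMP10 and IL11. Among the other genes named here that changed 8-fold or more, with a mean of at least 5 CPM over the 8 A549 libraries, GTTAAT is in the 250 bases of TSPAN8, TM4SF4, SPDEF, C5 and GPX2, which fell, and of TNFAIP6, which rose. SLAMF9, C4orf26, IGFL3, TNFAIP6, IL1A, FGF1, CLDN4 and MT2A hold TGANTCA and rose, whereas LCN2 and CYP4F3 hold it and fell.

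Detoxifying and antioxidant genes, many of them targets of the stress factor NRF2, fell in the same libraries. A549 is known for constitutively active NRF2, since its inhibitor KEAP1 is mutated. Of 47 tested genes 40 fell and 2 rose (median log2 −1.29), and their summed reads made up 5.21 and 5.18% of gene reads in the siCont libraries and 2.63 and 2.56% in the TGFβ libraries. AKR1B10, an aldo-keto reductase, was at 4605 and 4299 CPM in the siCont libraries and 484 and 404 CPM in the TGFβ libraries, 10.01-fold lower (log2 fold change −3.32 ± 0.13, adjusted p = 8.76e-11). GPX2, a glutathione peroxidase, fell 9.96-fold (from 765 and 760.4 to 77.7 and 75.4 CPM) and ALDH3A1, an aldehyde dehydrogenase, 8.16-fold (from 805 and 755 to 93.4 and 98.002 CPM). The sister genes AKR1C1, AKR1C2 and AKR1C3 fell 7.13-fold, 6.42-fold and 4.67-fold, and CYP4F3 and CYP4F11 20.6-fold and 4.83-fold, although reads can be split between near-identical copies in these families. NQO1, a quinone reductase, was at 2889 and 2929 CPM in the siCont libraries and 1026 and 977 CPM in the TGFβ libraries, 2.904-fold lower. The pentose phosphate enzyme PGD fell 3.02-fold, the glutathione synthesis subunits GCLC and GCLM 2.77-fold and 1.795-fold, and NFE2L2, which encodes NRF2, 1.54-fold. HMOX1, heme oxygenase 1, went the other way, 1.52-fold higher (from 116 and 118 to 176 and 180.1 CPM), and ALDH1A1 did not pass the test (log2 −0.05 ± 0.080, adjusted p = 0.624) at 11948 and 12150 CPM in the siCont libraries and 11930 and 11310 CPM in the TGFβ libraries.

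Among the largest changes by size were genes close to silent without TGFβ. By the rule for size, which takes called genes with a mean of at least 5 CPM over the 8 A549 libraries, SLAMF9, a receptor of the SLAM family, led the rises with no read in siCont and 28.3 and 35.8 CPM in TGFβ A and B, at least 263-fold higher over a floor of 3 reads in the group. ATP8A2, a lipid flippase, was at least 124-fold higher and C4orf26, an enamel protein gene, at least 93.7-fold higher, both from no read. IGFL1, an IGF-like secreted protein, was at 0.218 and 0 CPM in the siCont libraries and 101 and 100.1 CPM in the TGFβ libraries, higher by a ratio of pooled reads of 846 (exact 95% counting interval 289 to 4109). CORO2B, a coronin, rose 336-fold (from 0.145 and 0.263 to 69.7 and 71.3 CPM), TNFAIP6, a hyaluronan-binding protein, 303-fold (from 0.145 and 0.3502 to 73.9 and 77.2 CPM) and NPTX1, a pentraxin best known from neurons, 178-fold (from 2.76 and 2.45 to 457 and 478 CPM). The largest falls by the same rule were of TM4SF20 (119-fold, from 95.8 and 92.4 to 0.905 and 0.594 CPM) and TSPAN8 (76.5-fold, from 28.2 and 28.8 to 0.101 and 0.742 CPM), which span the membrane 4 times, followed by KRT4, FCGBP, a mucin-associated protein (69.01-fold, from 33.02 and 26.3 to 0.402 and 0.445 CPM), and AGR2.

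Several of these genes are neighbours on a chromosome. Of 541 genes that were called at least 4-fold higher and could be ordered along the RefSeq chromosomes, 143 had such a gene as the tested gene on either side (26.4%), against 7.64% of all 13595 ordered genes. Of 326 at least 4-fold lower, 65 had another one beside them (19.9%), against 4.71% of all ordered genes. The longest run was of 9 genes in the epidermal differentiation complex of chromosome 1, whose members build the outer layer of skin. LCE3D, a cornified envelope gene of this run, was at 0.218 and 0.263 CPM in the siCont libraries and 189.95 and 199 CPM in the TGFβ libraries (log2 fold change 9.6 ± 0.21, adjusted p = 5.99e-19), and LCE3E at 0 and 0.0875 CPM in the siCont libraries and 66.5 and 69.8 CPM in the TGFβ libraries. LCE3A had no read in siCont and was at least 23.2-fold higher. FLG, filaggrin, and HRNR, hornerin, rose 8.23-fold (from 0.798 and 0.963 to 6.34 and 8.46 CPM) and 11.2-fold (from 0.363 and 0.438 to 3.82 and 5.49 CPM). Reads can be split between the near-identical LCE3 copies. MMP10, MMP1, MMP3 and MMP12 stand together on chromosome 11, and MMP3 was higher by a ratio of pooled reads of 115 (exact 95% counting interval 20.01 to 4596). IGFL2, IGFL3 and IGFL1 adjoin on chromosome 19, and HOXD11, HOXD10 and HOXD9, which pattern limbs, on chromosome 2, where they rose 37.2-fold (from 0.218 and 0.3502 to 10.6 and 10.99 CPM), 29.997-fold (from 0.435 and 0.613 to 17.4 and 13.8 CPM) and 17.1-fold (from 0.2903 and 0.438 to 5.63 and 7.13 CPM). FGB, FGA and FGG form a run of falls on chromosome 4, and so do the alcohol dehydrogenases ADH4, ADH6 and ADH1C, of which ADH1C went from 11.03 and 11.5 to 0.101 and 0 CPM. ADH1C was lower by a ratio of pooled reads of 187 (exact 95% counting interval 33.3 to 7421) and ADH4 at least 12.6-fold lower. The fitted falls of both were larger than that of TM4SF20, but their means over the 8 A549 libraries were under 5 CPM, which kept them out of the ranking by size.

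Transcription factors of the AP-1 and immediate early group were raised at 72 h. All 23 were called, 18 higher and 5 lower, with a median log2 of 1.08. JUNB was at 72.1 and 82.5 CPM in the siCont libraries and 447 and 477 CPM in the TGFβ libraries, 5.99-fold higher (log2 fold change 2.58 ± 0.084, adjusted p = 1.71e-16), and JUN at 29.8 and 29.5 CPM in the siCont libraries and 139.6 and 142 CPM in the TGFβ libraries, 4.74-fold higher. FOSB rose 51.3-fold (from 0.145 and 0.263 to 9.76 and 12.03 CPM) and FOSL2 2.72-fold, while FOS fell 2.57-fold (from 15.7 and 15.7 to 6.14 and 6.09 CPM) and JUND 1.68-fold. EGR2 and EGR3, zinc finger factors, had no read in siCont and were at least 22.7-fold higher and at least 14.6-fold higher. MYC fell 1.302-fold (from 199.7 and 209.6 to 153 and 162 CPM).

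Secreted inflammatory genes rose more often than they fell. Of cytokine, chemokine and NF-κB genes, 20 of 37 tested genes rose, 10 fell and 7 did not pass the test (median log2 0.95). IL11, a fibrogenic cytokine of the IL6 family, was at 27.9 and 22.2 CPM in the siCont libraries and 948 and 958 CPM in the TGFβ libraries, 37.8-fold higher (log2 fold change 5.24 ± 0.10, adjusted p = 3.26e-20). IL1A rose 96.5-fold (from 0.218 and 0.263 to 23.5 and 24.6 CPM), IL1B 14.3-fold (from 0.508 and 0.438 to 7.24 and 6.53 CPM), CCL2, which draws monocytes, 7.97-fold (from 71.3 and 67.8 to 562 and 547 CPM) and IL8 4.52-fold (from 66.8 and 66.97 to 304 and 301 CPM). CSF2, GM-CSF, had no read in siCont and was at least 28.7-fold higher. CD274, the T cell inhibitor PD-L1, rose 7.35-fold (from 1.597 and 1.93 to 12.6 and 13.4 CPM). The NF-κB subunits RELB, NFKB2 and NFKB1 rose 3.36-fold, 2.63-fold and 2.303-fold. CCL20 and CXCL5 fell 3.09-fold and 1.95-fold. Interferon-stimulated genes had 12 falls and 8 rises among 30 (66.7% called). Of all genes 47.7% were called, 23.5% lower and 24.2% higher.

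Growth factors and receptor kinases were largely higher: 21 of 39 tested genes rose, 12 fell and 6 did not pass the test (median log2 0.66). PDGFB was at 11.8 and 10.6 CPM in the siCont libraries and 317 and 308 CPM in the TGFβ libraries, 27.7-fold higher (log2 fold change 4.79 ± 0.10, adjusted p = 1.34e-19). VEGFA, the angiogenic factor, rose 8.94-fold (from 63.6 and 70.3 to 572 and 623 CPM), EGFR 3.37-fold (from 194 and 181 to 668 and 596 CPM), its ligand HBEGF 3.599-fold and FGFR1 2.22-fold (from 361 and 349 to 785 and 789 CPM). FGF1, a ligand, went from 0.0726 and 0.175 to 13.8 and 12.8 CPM. ERBB3 and the receptors FGFR3 and FGFR4 fell, FGFR3 by 4.89-fold and FGFR4 by 2.05-fold. Of WNT pathway genes, 14 rose and 13 fell among 36 (75% called, against 47.7% of all genes). The ligand WNT5B rose 55.7-fold (from 0.726 and 0.613 to 39.2 and 36.97 CPM) and WNT7A was higher by a ratio of pooled reads of 278 (exact 95% counting interval 49.3 to 11044), whereas the antagonist DKK1 fell 12.4-fold (from 916 and 929.6 to 80.4 and 68.01 CPM), as did RNF43, which removes WNT receptors (7.97-fold), and LGR4, the R-spondin receptor (4.05-fold). In the Notch pathway JAG1, a ligand, rose 3.25-fold (from 161 and 153 to 520.5 and 499 CPM) and the receptor NOTCH3 fell 3.45-fold (from 236 and 219.5 to 66.8 and 65.5 CPM).

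Genes of cell division had medians slightly below 0. Of G1/S and DNA replication genes, 6 of 35 tested genes rose, 10 fell and 19 did not pass the test (median log2 −0.10), and of mitosis genes, 1 of 32 tested genes rose, 14 fell and 17 did not pass the test (median log2 −0.18). The share called in these lists, 45.7 and 46.9%, was close to the 47.7% of all genes. That share hides direction. In the mitosis list 14 of 32 fell and 1 rose, where 23.5% of all genes fell and 24.2% rose. CCND3 fell 2.098-fold (from 312 and 272 to 136 and 143 CPM), PCNA 1.704-fold and CDC25B 2.54-fold (from 265 and 254 to 103 and 101 CPM), while MKI67, a marker of cycling cells, did not pass the test (log2 0.07 ± 0.076, adjusted p = 0.501). CDKN1A, the CDK inhibitor p21, was at 82.1 and 78.7 CPM in the siCont libraries and 208 and 201 CPM in the TGFβ libraries, 2.54-fold higher, and CDKN1B, p27, fell 1.79-fold (from 108 and 111 to 60.5 and 62.2 CPM). Over CDK inhibitors and p53 targets, 19 of 30 tested genes rose, 3 fell and 8 did not pass the test (median log2 0.35). Of BCL2 family genes, 9 of 15 tested genes rose, 2 fell and 4 did not pass the test (73.3% called, against 47.7% of all genes). BCL2A1 and MCL1, which oppose apoptosis, rose 15.4-fold (from 3.48 and 2.801 to 43.2 and 55.2 CPM) and 2.57-fold (from 197 and 199 to 508 and 510.4 CPM), BMF, which promotes it, rose 4.34-fold (from 8.06 and 6.303 to 32.6 and 30.1 CPM), and BCL2L1, another gene that opposes it, fell 1.695-fold.

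Metabolic lists and YAP and SRF targets held calls in both directions, whereas the calls among ribosomal protein genes were all falls. The share called was 51.9% for cholesterol genes and 40% for ribosomal proteins, near or under the 47.7% of all genes, and 80, 62.9 and 90% for lipid genes, hypoxia and glycolysis genes, and YAP and SRF targets. Cholesterol genes had 11 falls and 3 rises among 27, with the synthase HMGCS1 lower by 3.36-fold (from 195 and 193 to 55.8 and 59.8 CPM). Lipid genes had 14 rises and 14 falls among 35, and ANGPTL4, an inhibitor of lipoprotein lipase and a known TGFβ target, was at 116 and 119 CPM in the siCont libraries and 1119 and 1148 CPM in the TGFβ libraries, 9.65-fold higher. Of hypoxia and glycolysis genes, 13 fell and 9 rose among 35, with the carbonic anhydrase CA12 lower by 3.24-fold (from 1671 and 1726 to 545 and 503 CPM). The metallothionein MT2A, outside the lists and chosen after its values were seen, rose 10.9-fold (from 67.5 and 56.3 to 655 and 695 CPM). Of YAP and SRF targets, 10 rose and 8 fell among 20, CTGF and ANKRD1 in opposite directions (4.57 ± 0.11 and −1.52 ± 0.19 log2). Ribosomal protein genes, often used as references, had 10 falls, no rise and a median log2 of −0.21.

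**Figure D3:**
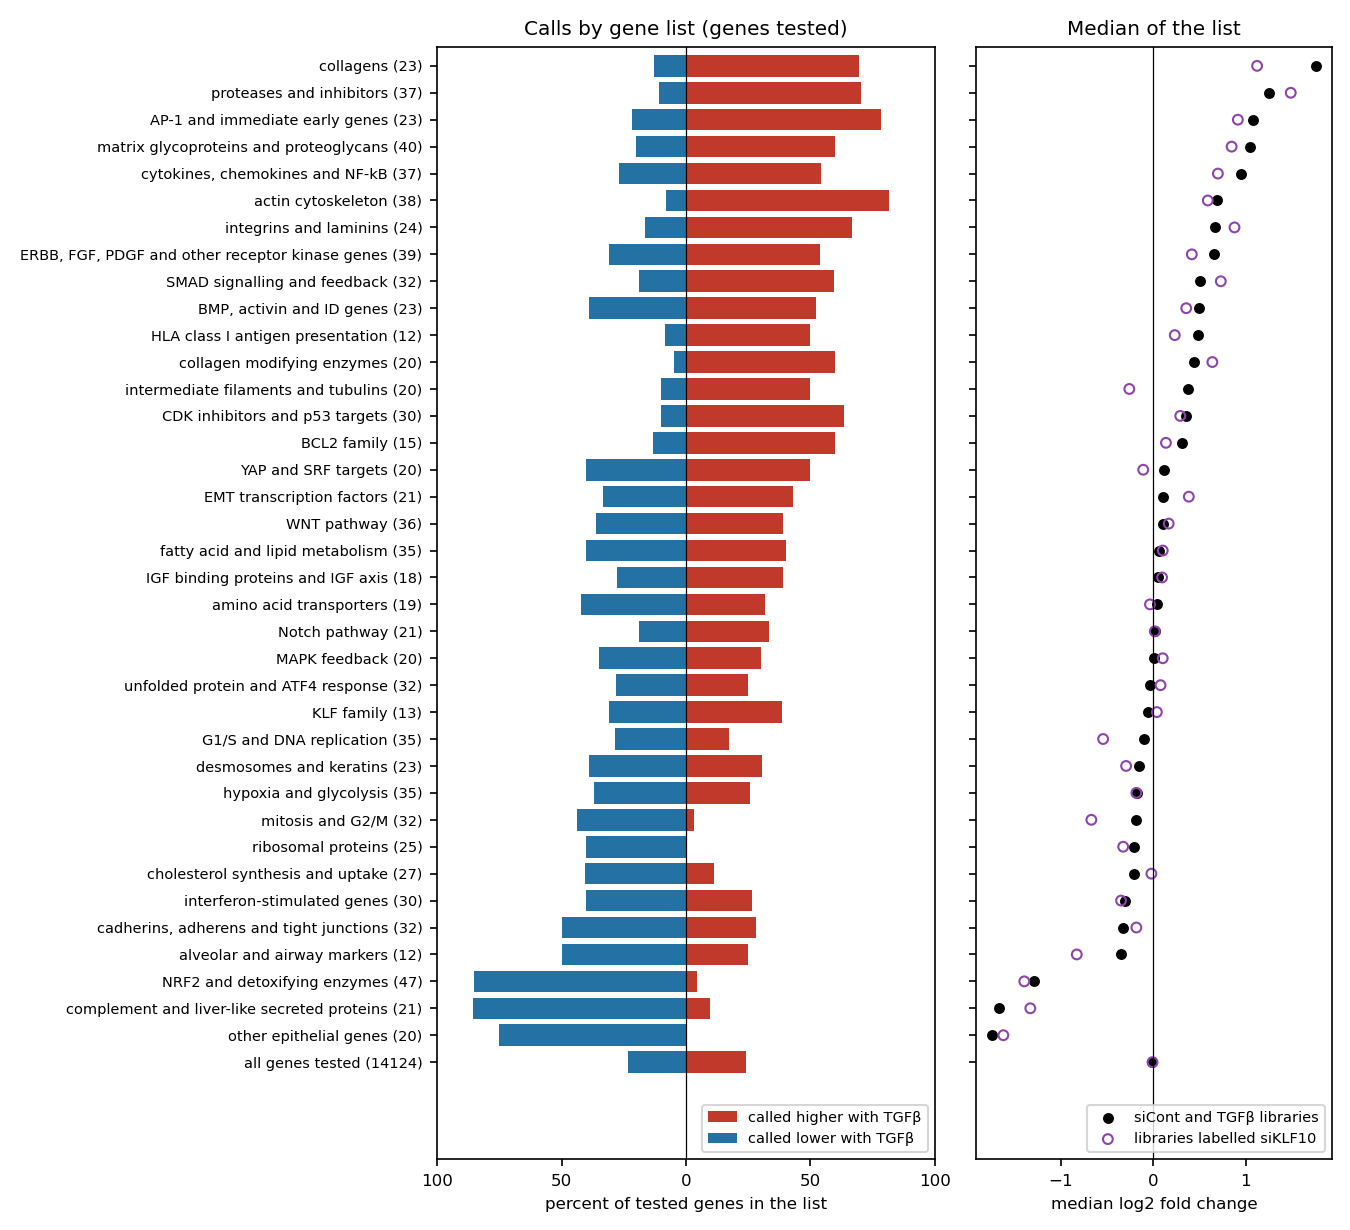
Left, the percent of tested genes in each of 37 lists that were called higher (red) or lower (blue) with TGFβ, with the number tested in brackets and all 14124 genes as the bottom row. Right, the median log2 fold change of each list in the siCont and TGFβ libraries (filled) and in the libraries labelled siKLF10 (open). Collagens have the highest median (1.76) and other epithelial genes the lowest (−1.74). The lists were written with earlier results of these data known, so medians and ranks are descriptions only.

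The 4 A549 libraries labelled siKLF10 were also made with and without TGFβ. The contrast above does not use them, but they share the fit. They so entered the scaling, the errors, the calls, the filter on low counts and the 5 CPM rule. Fitted fold changes shift slightly without them, as in CD44 (log2 0.160 in the main fit, 0.165 with only the siCont and TGFβ libraries). KLF10 was at 102 and 109 CPM in the libraries labelled siKLF10, against 110.3 and 107 CPM in siCont, so its level does not set them apart, and the label is used only as a name. The siKLF10+TGFβ libraries differed from each other more than those of the other A549 groups (chi-square per degree of freedom 11.4, against 2.22 to 2.97). With against without TGFβ, 3741 genes were higher (26.5%) and 3781 lower (26.8%), 53.3% in all. Of the 3416 genes that rose in the siCont pair, 2757 also rose here (80.7% of them), and of the 3317 that fell 2558 also fell (77.1%), while 47 were called in opposite directions. Over 14124 genes the log2 fold changes of the pairs correlated at r = 0.893, a description across genes of 1 line, which are not independent replicates. CDH1 (log2 −2.76 ± 0.089), SERPINE2 (log2 5.71 ± 0.098), FN1 (log2 3.01 ± 0.090), AGR2 (log2 −6.22 ± 0.13), FGA (log2 −4.82 ± 0.12) and AKR1B10 (log2 −3.88 ± 0.13) moved in the direction given above. Medians of the lists were alike in sign for collagens (1.12), other epithelial genes (−1.62) and detoxifying enzymes (−1.4). They were opposite in 5 of the 37 lists, among them intermediate filaments and tubulins (0.37 in the siCont pair, −0.26 here, with 6 rises and 7 falls) and YAP and SRF targets (0.11 and −0.11). The other 3 were the KLF family, the unfolded protein response and amino acid transporters, with medians within 0.1 of 0 in both pairs.

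The response differed between the pairs for 916 genes (6.49%), 460 with a higher log2 fold change in the siKLF10-labelled pair (3.26%) and 456 with a lower one (3.23%). This count depends on single libraries. It was 379 to 545 when siCont A or B, TGFβ A or B, or siKLF10 A or B was left out, 2685 without siKLF10+TGFβ A, 1156 without siKLF10+TGFβ B and 559 with DESeq2. HAO1 had the largest called difference (7.66 ± 1.57, adjusted p = 0.00459). It went from 3.48 and 4.03 CPM to no read in the siCont pair, so its value depends on the prior count of the model. KIAA1324 (difference −3.71 ± 0.84), GPD1 (3.40 ± 0.98) and CIDEC (3.33 ± 0.70) also had larger differences than CFI and are not described further. SCG2, a granin of secretory granules, went from 1.02 and 1.401 to 4.73 and 4.01 CPM in the siCont pair and from 2.08 and 2.09 to 182 and 257 CPM in the other (difference 4.83 ± 0.60, adjusted p = 5.9e-04). IGFBP5, an IGF binding protein, went from 5.298 and 5.51 to 9.96 and 6.68 CPM and from 3.39 and 4.19 to 70.4 and 83.6 CPM (difference 3.72 ± 0.28, adjusted p = 7.84e-08). The complement inhibitor CFI fell in the siCont pair (from 12.99 and 16.2 to 2.41 and 1.63 CPM) and went from 5.297 and 5.16 to 6.08 and 8.29 CPM in the other (difference 3.28 ± 0.33, adjusted p = 1.99e-06). ADRA2A, an adrenergic receptor, went from 1.16 and 0.963 to 2.01 and 1.04 CPM and from 0.695 and 0.558 to 16.8 and 16.3 CPM (difference 4.08 ± 0.53, adjusted p = 6.62e-05). PLIN1, a lipid droplet protein, went from 6.24 and 6.74 to 0.201 and 0.297 CPM and from 0.608 and 0.698 to 0.101 and 0.921 CPM (difference 4.65 ± 0.89, adjusted p = 0.00243), a call lost without siKLF10+TGFβ B (log2 2.16, adjusted p = 0.648). Genes of cell division also differed. In the siKLF10-labelled pair 28 of 32 mitosis genes and 26 of 35 G1/S and replication genes fell (medians −0.67 and −0.54). The difference was called for 19 of the mitosis genes (59.4%) and 12 of the G1/S genes (34.3%), every one with the lower value in the siKLF10-labelled pair. Without 1 library the mitosis count ranged from 12 (without TGFβ A or siKLF10 A) to 25 (without siKLF10+TGFβ A), all lower. The G1/S count did not hold: it was 0 without siCont B or siKLF10 A, 1 without siCont A, 2 without TGFβ A or TGFβ B, and 20 lower and 1 higher without siKLF10+TGFβ A. CDC20, an activator of the anaphase ligase, went from 86.6 and 82.7 to 96.1 and 104 CPM and from 90.1 and 81.4 to 64.5 and 48.2 CPM (difference −0.86 ± 0.16, adjusted p = 0.00246), and PTTG1, securin, from 93.5 and 100.1 to 71.5 and 77.2 CPM and from 105 and 102 to 46.5 and 38.8 CPM (difference −0.91 ± 0.13, adjusted p = 2.35e-04). These 2 genes were chosen after their values were seen. In SCG2, IGFBP5 and ADRA2A the high libraries were both siKLF10+TGFβ libraries, while in PLIN1 and CFI the siCont libraries lay above the other 6.

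**Figure D4:**
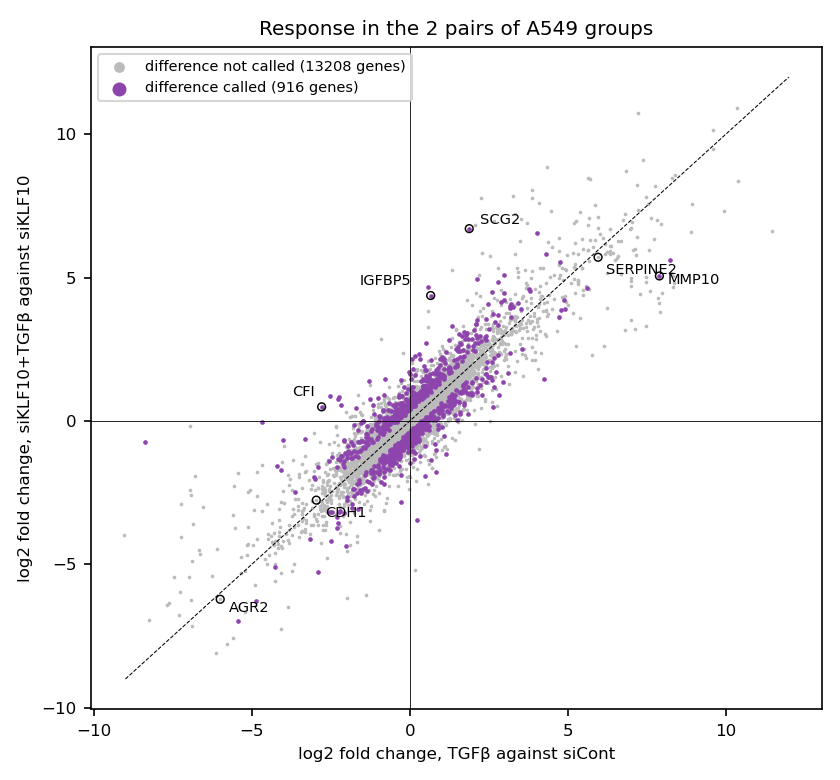
Each point is 1 of 14124 genes. The x axis is the log2 fold change between TGFβ and siCont and the y axis that between siKLF10+TGFβ and siKLF10, with the dashed line where they are equal. The 916 genes whose difference was called are in purple, and SCG2, IGFBP5 and CFI lie well above the line.

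More genes were called with TGFβ in A549 than in Panc1, a pancreatic line given the same dose for the same time. Groups held 2 libraries in A549 and 3 in Panc1. Reads assigned to no annotated gene were 57.6 to 60.1% of uniquely mapped reads in A549 libraries and 33.6 to 36.9% in Panc1 libraries. This difference goes with the line, and its part in the results was not tested. In 1 model of all 20 libraries, 1894 genes were higher (12.6%) and 2017 lower (13.4%) with TGFβ in Panc1, 26% in all, against 2929 (19.5%) and 3998 (26.6%) in A549, 46% in all. The lists overlapped in 963 rises, 32.9% of those of A549 and 50.8% of those of Panc1, and in 961 falls, 24.04 and 47.6%. Opposite directions were called for 259 genes that rose in A549 and fell in Panc1 and 266 that did the reverse. The difference itself was called for 4663 of 15058 genes (31%), with A549 above Panc1 for 2082 (13.8%) and below it for 2581 (17.1%). This split depends on the scaling, since 44.6% of the calls were above with TMM and 55.6% with upper-quartile scaling.

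The largest differences were of genes that rose in A549 and had values near or below 0 in Panc1. NPTX1 had a log2 fold change of −0.37 ± 0.27 in Panc1 (difference 7.78 ± 0.36, adjusted p = 4.04e-18), CORO2B −0.14 ± 0.13 (difference 8.47 ± 0.29, adjusted p = 1.01e-21), KIF26B, a kinesin, −0.12 ± 0.12 (difference 7.27 ± 0.33, adjusted p = 2.83e-18) and MMP1 0.33 ± 0.18 (difference 7.26 ± 0.37, adjusted p = 7.46e-17). In A549, KIF26B was at 0.2903 and 0.0875 CPM in the siCont libraries and 27.3 and 35.5 CPM in the TGFβ libraries. TFPI2, a protease inhibitor, rose 2.39-fold in A549 and had a log2 fold change of −6.34 ± 1.05 in Panc1 (difference 7.52 ± 1.02, adjusted p = 7.66e-05), and TIMP3 had −1.18 ± 0.35 (difference 7.09 ± 0.81, adjusted p = 8.18e-06). Below Panc1 were FCGBP (Panc1 −0.44 ± 0.43, difference −5.75 ± 0.70, adjusted p = 1.21e-07), FGG (Panc1 1.0 ± 0.38, difference −5.24 ± 0.42, adjusted p = 4.71e-12), KRT4 (Panc1 −1.03 ± 0.41, difference −5.16 ± 0.75, adjusted p = 5.11e-05) and AGR2, which fell in both lines (Panc1 −2.21 ± 0.098, difference −3.86 ± 0.17, adjusted p = 2.21e-18). FGG had a mean of 0.381 CPM in Panc1 siCont and 0.773 CPM with TGFβ, so its Panc1 value rests on few reads. TFPI2 had a mean of 4.76 CPM in Panc1 siCont and 0.0472 CPM with TGFβ. Its fitted Panc1 fold therefore rests on few reads with TGFβ and depends on the prior count of the model. The other 6 genes that the rule picks had Panc1 siCont means of at most 0.171 CPM or, in PCDH15, too few A549 reads, and are not described.

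Genes described above also differed between the lines. TGFBR1 had a log2 fold change of −0.05 ± 0.081 in Panc1 (difference 2.89 ± 0.13, adjusted p = 1.05e-18). ID3 rose in A549 and had −2.0 ± 0.13 in Panc1 (difference 2.48 ± 0.18, adjusted p = 7.69e-10), KRT7 −1.74 ± 0.35 (difference 2.56 ± 0.43, adjusted p = 5.15e-04) and ITGB4 −2.23 ± 0.12 (difference 3.66 ± 0.16, adjusted p = 4.3e-18), each with opposite signs in the lines. These 4 genes were chosen after their values were seen.

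**Figure D5:**
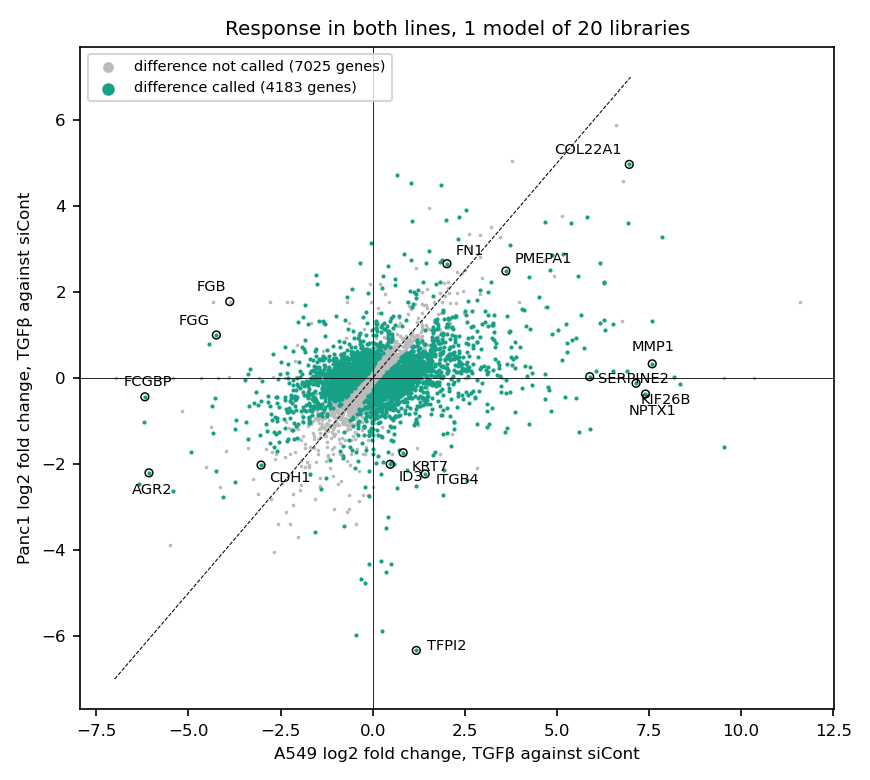
Log2 fold change between TGFβ and siCont in A549 (x axis) and in Panc1 (y axis) from 1 model of 20 libraries, for 11208 genes with a mean of at least 5 CPM over the 4 groups. Genes whose difference was called (4183) are in green and the dashed line marks equal values. NPTX1, MMP1 and KIF26B lie far to the right near a Panc1 value of 0, and TFPI2 far below it. The Panc1 value of TFPI2 rests on few reads with TGFβ.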

How the data were processed

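Poly(A) RNA-seq libraries of A549 (8) and Panc1 (12) were used, made with a directional kit from total RNA, per the labels' protocols. The authors deposited 1 file of whole-number gene counts for each library. TopHat, Bowtie2, HTSeq 0.6.0 and DESeq2 were used with build hg19, per the submitters' processing notes. Use of strand in counting was not given in the sources used here. Overlapping and antisense genes are therefore uncertain, as are near-identical copies. The 5 summary lines of each file entered neither library sizes nor tests. The authors' tables of comparisons were not used.

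Counts were fitted with edgeR 4.0.16 in R 4.3.3 (filterByExpr with minimum count 10 and minimum total 15, TMM, robust quasi-likelihood), with all 8 A549 libraries and 4 residual degrees of freedom. Differences between lines came from all 20 libraries (12 residual degrees of freedom). Adjusted p-values are Benjamini-Hochberg over all genes tested. Errors after ± are standard errors derived from the test, as the absolute log2 fold change over the square root of the F statistic. They are approximate, above all at low counts. Each group of the comparison has n = 2 libraries. Replicate pairs differed by more than counting noise (chi-square per degree of freedom 2.57 in siCont, 2.22 in TGFβ, 2.97 in siKLF10 and 11.4 in siKLF10+TGFβ, over genes averaging 20 reads or more). In the plots and text A and B name libraries only.

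Where the siCont or TGFβ group of A549 had no read, folds were taken against 3 reads over the group. With 1 to 3 reads a ratio of pooled reads is given. Values for Panc1 and for the siKLF10-labelled pair are as fitted at any depth. Floors and intervals cover counting error only. Named genes were a fixed set (SMAD7, FN1, VIM, CDH2, CDH1, KLF10, the Snail, Slug and ZEB1 genes, and a gene not reported here), up to 20 rises and 20 falls by size with a mean of at least 5 CPM over the 8 A549 libraries and no overlap of the groups, up to 8 called members of each list by size, and up to 8 line differences each way and 10 differences between pairs. Members named beyond these were chosen after their values were seen. The members and lists were chosen with earlier results of these data known. DESeq2 1.42.0, other scalings and filters, and leaving out each library were tried as alternatives. For the difference between pairs, DESeq2, the replicate block and leaving out each library were added after seeing the data.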

Additional observations from a re-analysis of the deposited data

Results flagged for a closer look

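The A549 response differed from that of Panc1 for 4663 genes by a test of the difference itself. Differences in log2 fold change (A549 minus Panc1) were −3.86 for AGR2, 8.47 for CORO2B, −5.75 for FCGBP, −5.24 for FGG, 2.48 for ID3, 3.66 for ITGB4, 7.27 for KIF26B, −5.16 for KRT4, 2.56 for KRT7, 7.26 for MMP1, 7.78 for NPTX1, 7.52 for TFPI2, 2.89 for TGFBR1 and 7.09 for TIMP3. Those of FGG and TFPI2 rest on few Panc1 reads.

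Between the pairs of A549 groups the response differed for 916 genes. The differences in log2 fold change (siKLF10-labelled pair minus siCont pair) were 4.08 for ADRA2A, −0.861 for CDC20, 3.28 for CFI, 3.72 for IGFBP5, 4.65 for PLIN1, −0.909 for PTTG1 and 4.83 for SCG2. Genes were picked for the size of their difference, except TGFBR1, ID3, KRT7, ITGB4, CDC20 and PTTG1, which were chosen after their values were seen. Not every gene of that size is listed. Between the pairs, HAO1 (7.66), KIAA1324 (−3.71), GPD1 (3.40) and CIDEC (3.33) also had larger differences than CFI. The count of 916 depends on single libraries, as given above.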

How the results depend on the processing

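No count for TGFβ, the siKLF10-labelled pair or the lines moved by more than 1.5 times. Outside the fits that left out a library, genes higher with TGFβ ranged from 2893 to 3910 and lower ones from 2481 to 3998; without each library in turn they ranged from 2639 to 2877 and 2320 to 2591, and at 2-fold or more from 1198 to 1262 and 892 to 943. For the siKLF10-labelled pair the ranges without a library were 2991 to 4153 and 2971 to 4132, and for A549 above or below Panc1 1644 to 2008 and 2013 to 2462. The difference between pairs did not keep its counts: above and below it was 198 to 1331 and 177 to 1354 without 1 library (74 to 174 and 42 to 161 at 2-fold or more), 269 and 290 with DESeq2 (40 below at 2-fold or more, from 66), and up to 688 and 548 in the other settings. In the model of all 20 libraries 42.3% of the A549 calls were rises and the median over genes was −0.08, against 46.9 to 53.8% in the other settings. The letters A and B name libraries. Deviations of same-lettered libraries correlated at 0.0109 between siCont and TGFβ, and at −0.0211 to 0.273 over the 6 pairs of groups. The 3 values above 0.1 were 0.273 between siCont and siKLF10, 0.170 between siCont and siKLF10+TGFβ, and 0.177 between siKLF10 and siKLF10+TGFβ. Whether these groups share an effect of the letter was not tested, and the main fit has no term for it. With the letter as a replicate block 6943 genes were called for TGFβ, 6717 of them among the 6733, 7695 for the siKLF10-labelled pair, 1026 for the difference between pairs and 4717 for the lines. Among the named genes 3728 of 3748 recomputed values kept direction and side of the threshold. Calls for TGFβ lost in at least 1 setting were those of ESRP1, IGFBP5, PTTG1, TWIST1 and TWIST2, and the difference for PLIN1 was lost without siKLF10+TGFβ B. CD44 and CDC20 passed the test with only the siCont and TGFβ libraries, CDC20 also with no filter on low counts. These genes that had not passed the test changed sign, with log2 fold changes of −0.0079 for ACTA2 in the model of all 20 libraries, −0.0062 for MKI67 in the model of all 20 libraries and −0.041 for ADRA2A without TGFβ A (range without 1 library −0.041 to 0.91); the cause was not tested. The alternatives for the difference between pairs, other than scaling and filters, were chosen after seeing the data. The lone library left in a group is assumed to vary like the others. Depth limits genes near 3 reads, whose folds in the siCont and TGFβ libraries of A549 are given as bounds or ratios.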

Other observations

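The 2 transcription factors of liver genes given here were in none of the lists and were chosen after their values were seen. HNF4A fell 1.58-fold (from 60.8 and 59.4 to 37.8 and 38.2 CPM) and CEBPA fell 1.72-fold (from 17.9 and 14.7 to 8.65 and 10.7 CPM).

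Of 274 tested long noncoding RNA genes (RefSeq biotypes) 37 rose and 53 fell, 32.8% called, against 49.4% of 12966 protein-coding genes. Of 74 small nucleolar RNA genes 1 rose and 1 fell. These classes were not compared at matched levels. MEG3, an imprinted RNA, rose 9.102-fold (from 3.34 and 4.38 to 31.4 and 38.9 CPM), LINC00152 2.96-fold (from 15.3 and 15.9 to 44.6 and 47.96 CPM) and MIR22HG 2.62-fold (from 35.4 and 32.04 to 85.4 and 91.8 CPM). LINC00473, a cAMP-responsive RNA, fell 2.53-fold (from 70.6 and 75.4 to 28.4 and 29.4 CPM). They were chosen after their values were seen.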
